A study of Homo sapiens with 12 samples.

Results

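The genes described here encode chaperonins, the barrel-shaped chaperones in which newly made or imported proteins fold. They were chosen by name, with earlier results of these data known, from the table of 58735 genes and are 10 in number. Of these, 8 (TCP1, CCT2, CCT3, CCT4, CCT5, CCT6A, CCT7 and CCT8) encode the subunits of CCT, the cytosolic chaperonin also called TRiC, and 2 (HSPD1 and HSPE1) encode HSP60 and its lid HSP10 of the mitochondrial matrix. All 10 had rows in the table and all 10 passed the filter on low counts.

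RNA was measured in K562 cells, a human erythroleukemia line driven by the BCR-ABL1 fusion kinase, which hemin induces to make hemoglobin. The 12 libraries form 4 groups of 3 biological replicates. Mock DMSO cells received the solvent alone, and mock nilotinib cells received 0.1 μM nilotinib, a tyrosine kinase inhibitor of BCR-ABL1. Both were pretreated for 24 h, as the study describes, and collected at 0 h of hemin. Hemin DMSO and hemin nilotinib cells were pretreated in the same way and then given 50 μM hemin for 24 h. By the study's methods the mock cells were collected when hemin was added, so the effect of hemin and that of 24 further hours in culture cannot be told apart. By the same timing the hemin nilotinib cells were exposed to nilotinib for longer than the mock nilotinib cells. All 4 groups come from 1 cell line, and the labels do not say whether the replicates are separate cultures from separate days.

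CCT is made of a pair of stacked rings. Each ring holds a single copy of every one of the 8 subunits in a fixed order, and it folds actin, tubulin and several WD-repeat proteins that are handed over by prefoldin and by phosducin-like cofactors. HSP60 forms rings of identical subunits, closed by HSP10, which fold proteins after their import into mitochondria. Genes of both chaperonins are textbook targets of the heat shock factor HSF1, which binds alternating GAA and TTC units in DNA, and hemin is a known activator of the heat shock response in K562 cells.

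HSPD1 and HSPE1 lie on opposite strands, HSPD1 on the minus strand at chr2:197486581-197516737 and HSPE1 on the plus strand at chr2:197499994-197503457 (GRCh38). As listed, the HSPE1 span lies within that of HSPD1. The main RefSeq start sites of both genes lie 105 bases apart, and from these sites they are transcribed away from each other. CCT4 (chr2:61868089-61888804, minus strand) and CCT7 (chr2:73233420-73253021, plus strand) lie on the same chromosome. The others are on chromosomes of their own, TCP1 at chr6:159778498-159789749, CCT2 at chr12:69585334-69601570, CCT3 at chr1:156308968-156367873, CCT5 at chr5:10249921-10266412, CCT6A at chr7:56051630-56063989 and CCT8 at chr21:29055805-29073797.

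The sequences that follow are the matches to heat shock units (GAANNTTC or TTCNNGAA) and to the E-box CACGTG upstream of the members' start sites. RefSeq promoter windows (GRCh38.p14, 250 bases before to 50 after a start) were found for 9 of the 10 members, in 12 windows, and not for CCT6A. The words read the same on both strands, and a run of 3 alternating units contains the shorter words. Each stretch is 30 bases long and is written in the direction of its gene, with the match in capitals.
HSPD1, second start site, -250 to -221, chr2:197500061-197500090, minus strand, run of alternating units: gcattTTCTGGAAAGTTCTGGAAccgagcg
HSPE1, -34 to -5, chr2:197500345-197500374, plus strand, E-box: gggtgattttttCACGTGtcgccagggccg
TCP1, -242 to -213, chr6:159789815-159789844, minus strand, heat shock unit pair: tcgtttgaggcGAAGGTTCaacctcttccc
CCT2, second start site, -100 to -71, chr12:69585789-69585818, plus strand, heat shock unit pair: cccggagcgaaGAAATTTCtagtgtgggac

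A run of 3 alternating units was found in 172 of 35116 RefSeq windows (0.490%), and among the members' windows only in that of the second HSPD1 start. It holds 2 overlapping runs of this kind. The printed HSPD1 stretch lies downstream of the first HSPD1 start, at chr2:197500274. That stretch also lies upstream of the HSPE1 start, at chr2:197500379, but outside the HSPE1 window, which begins at chr2:197500129. All 4 printed stretches are also annotated as exonic in GENCODE 29, that of HSPD1 within 1 HSPD1 transcript and, on the other strand, 1 HSPE1 transcript, those of HSPE1 and CCT2 within 2 transcripts of the same gene each, and that of TCP1, on the other strand, within 1 transcript of MRPL18. The E-box of HSPE1 lies between its start and the first HSPD1 start, so the first HSPD1 window holds it as well; CACGTG was present in 7.26% of windows. GAANNTTC was present in 6.77% of windows and TTCNNGAA in 7.74%. CCT4 had a TTCNNGAA match after its start, and the windows of CCT3, CCT5, CCT7 and CCT8 had none of these words. These are matches of letters in a fixed window, and binding was not measured.

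The libraries held 33457078 to 50506990 counts, and replicates of a group correlated at 0.969 or above on the log2 scale. No member had fewer than 310 counts in any library. Levels are given as TMM-scaled CPM, counts relative to the library's effective total, and per kilobase of the listed gene length where genes are compared with each other. Fold changes, their SE and their Benjamini-Hochberg adjusted p come from 1 edgeR quasi-likelihood fit over 20821 genes, with a call at an adjusted p under 0.05. Where libraries of a group are described as all above, all below or overlapping those of another, the share over all genes was not counted. A change in RNA per cell and a change in the mix of cells in a culture cannot be told apart in these bulk libraries. The summed level of 7 K562 and erythroid markers ranged from 1118 to 1942 CPM in the DMSO groups and from 7083 to 14869 CPM in the nilotinib groups. That of 5 megakaryocyte markers ranged from 33.2 to 73.3 CPM in the DMSO groups and from 7.53 to 19.8 CPM in the nilotinib groups, with PF4 and GP1BB at 3 counts or fewer in every library. That of 5 myeloid markers ranged from 66.1 to 96.8 CPM in the DMSO groups and from 8.28 to 18.1 CPM in the nilotinib groups. That of 5 lymphoid markers ranged from 56.4 to 106 CPM and from 33.1 to 61.1 CPM, with MS4A1 at 3 counts or fewer, and that of 4 fibroblast or epithelial markers from 383 to 828 CPM and from 116 to 186 CPM. These marker levels moved with nilotinib, as the members did, and their part in the members' differences was not tested.

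The first question was how the chaperonin transcripts changed during hemin treatment of cells without nilotinib. All 10 members rose, while 25.7% of the genes tested were called higher and 27.8% lower. HSPE1 and HSPD1 rose most, by 6.50-fold and 3.99-fold, and the CCT genes rose by 1.49-fold (CCT8) to 2.54-fold (CCT4). The median log2 fold change was 0.83 over the 8 CCT genes and -0.05 over all genes tested.

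HSPD1, the barrel of the mitochondrial chaperonin, measured 447, 490.1 and 509.7 CPM in mock DMSO and 1624, 2418 and 1734 CPM in hemin DMSO. The lowest hemin library was above the highest mock library, and the second hemin replicate stood above the other two. On the log2 scale HSPD1 rose by 2.0 ± 0.16 (SE, adjusted p = 7.59e-08 by edgeR). HSPE1, its lid, measured 17.8, 15.1 and 18.7 CPM in mock DMSO and 112, 109 and 114 CPM in hemin DMSO, groups that were far apart with little spread within each. Its log2 fold change was 2.70 ± 0.16 (adjusted p = 8.40e-09 by edgeR).

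Within CCT, CCT4 measured 331, 395 and 416 CPM in mock DMSO and 934, 1106 and 858 CPM in hemin DMSO, with a log2 fold change of 1.34 ± 0.17 (adjusted p = 7.98e-06 by edgeR). TCP1 measured 326, 351 and 363 CPM in mock DMSO and 671, 1051 and 820.5 CPM in hemin DMSO, with a log2 fold change of 1.29 ± 0.16 (adjusted p = 5.87e-06 by edgeR). In both genes all hemin libraries were above all mock libraries, and the spread was wider with hemin. CCT6A also rose, by 1.29 ± 0.13 on the log2 scale, from 298 ± 25.6 to 729 ± 58.4 CPM (mean ± SD, n = 3 each). The remaining CCT genes rose less, by log2 fold changes of 0.88 (CCT3), 0.77 (CCT5), 0.72 (CCT7), 0.62 (CCT2) and 0.58 (CCT8).

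The next question was whether nilotinib alone changed these transcripts. Of the 10 members, 8 fell and 2, TCP1 and CCT2, did not pass the test, while 21.8% of the genes tested were called lower and 20.7% higher. The members that fell were HSPD1, HSPE1 and 6 CCT genes. The largest falls were those of HSPD1 (log2 fold change -1.15 ± 0.16, adjusted p = 2.02e-05 by edgeR), CCT6A (-1.05 ± 0.13) and CCT5 (-1.02 ± 0.14).

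HSPD1 measured 229.7, 221 and 201 CPM in mock nilotinib, below all 3 mock DMSO libraries. CCT6A measured 277, 291 and 327 CPM in mock DMSO and 161, 136 and 137 CPM in mock nilotinib, and CCT5 measured 355, 368 and 394 CPM and then 209, 178 and 165 CPM. Neither gene had overlapping groups, and the share of all genes without overlap was not counted. HSPE1 measured 13.4, 9.66 and 8.94 CPM, a log2 fold change of -0.69 ± 0.16. CCT3, CCT8, CCT7 and CCT4 had log2 fold changes of -0.81, -0.76, -0.51 and -0.50, and CCT4 was not called with upper-quartile factors or without mock DMSO replicate 2, mock DMSO replicate 3 or mock nilotinib replicate 1 (values of -0.43 to -0.64 over all libraries left out).

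The exceptions differed in sign. TCP1, the alpha subunit, had a log2 fold change of -0.30 ± 0.16 (adjusted p = 0.140 by edgeR). CCT2, the beta subunit, measured 229, 269.9 and 299 CPM in mock DMSO and 344, 350.2 and 343 CPM in mock nilotinib. Every nilotinib library was above every DMSO library, at a log2 fold change of 0.38 ± 0.15 (adjusted p = 0.0507 by edgeR), which is close to the threshold and was past it in 6 of 17 alternative analyses.

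In cells given hemin, nilotinib lowered 9 of the 10 members, with CCT2 the exception, while 31.8% of the genes tested were called lower and 32.4% higher. The median log2 fold change was -1.21 over the 8 CCT genes and 0.02 over all genes tested. HSPD1 fell by 2.73 on the log2 scale, to 0.151 of its level in hemin DMSO, and HSPE1 fell by 2.24, to 0.212 of it. Among CCT genes the falls ran from 0.90 (TCP1) to 1.71 (CCT6A) on the log2 scale.

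HSPD1 measured 299.9, 297 and 274 CPM in hemin nilotinib (log2 fold change against hemin DMSO -2.73 ± 0.16, adjusted p = 1.33e-09 by edgeR). These values were also below all 3 libraries of mock DMSO, which had received neither compound. HSPE1 measured 20.7, 23.1 and 27.3 CPM, below hemin DMSO (-2.24 ± 0.16, adjusted p = 9.96e-09 by edgeR) but above each mock DMSO library. CCT6A measured 739, 781 and 666 CPM in hemin DMSO and 215, 222 and 230.1 CPM in hemin nilotinib (-1.71 ± 0.13, adjusted p = 1.78e-08 by edgeR). CCT4 measured 236, 350.1 and 348 CPM in hemin nilotinib (-1.63 ± 0.17), the first library being the lowest. CCT5, CCT3, CCT8, CCT7 and TCP1 had log2 fold changes of -1.26, -1.21, -1.21, -0.92 and -0.90, with no overlap between the groups in any of these genes. The share of all genes whose groups do not overlap was not counted. CCT2 measured 397, 463 and 366 CPM in hemin DMSO and 474, 378 and 344 CPM in hemin nilotinib, groups that overlapped, at a log2 fold change of -0.04 ± 0.15 (adjusted p = 0.845 by edgeR).

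**Figure D1:**
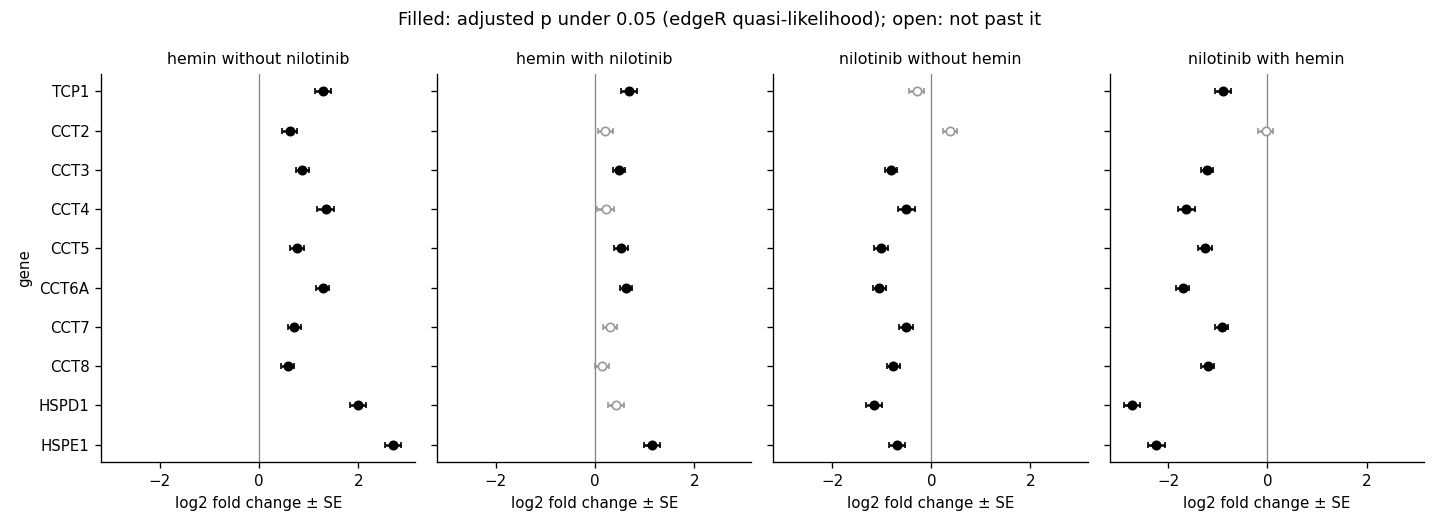
Log2 fold change ± SE (x axis) of each gene (y axis) in 4 comparisons; filled points passed an adjusted p under 0.05 and open points did not. All 10 genes are filled and above 0 for hemin without nilotinib, and CCT2 is the open point at -0.04 for nilotinib with hemin.

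Hemin also raised some of these transcripts on top of nilotinib. Of the 10 members, 5 rose and 5 had values above 0 that did not pass the test, while 3.52% of the genes tested were called higher and 2.28% lower. The 5 were HSPE1 (log2 fold change 1.15 ± 0.16, adjusted p = 0.00132 by edgeR), TCP1 (0.69 ± 0.16, adjusted p = 0.0200), CCT6A (0.62 ± 0.13, adjusted p = 0.0124), CCT5 (0.53 ± 0.14, adjusted p = 0.0369) and CCT3 (0.48 ± 0.12, adjusted p = 0.0357). HSPD1, at 0.42 ± 0.15, had an adjusted p of 0.123 by edgeR, although its 3 hemin nilotinib libraries were above its 3 mock nilotinib libraries. CCT7, CCT4, CCT2 and CCT8 had log2 fold changes of 0.30, 0.22, 0.21 and 0.14.

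The number of calls in this comparison depended on single libraries. It was 1 of 10, HSPE1, without mock nilotinib replicate 2, without mock nilotinib replicate 3 or without hemin nilotinib replicate 2, and 3 without hemin nilotinib replicate 3. Same-numbered libraries of the nilotinib groups deviated together, and with the replicate number as a block in these 6 libraries alone HSPD1 was called as well (log2 fold change 0.43 ± 0.09, adjusted p = 0.0334 by edgeR).

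Whether the effect of nilotinib differed between cells with and without hemin was tested as an interaction, in which the presence of hemin and the longer nilotinib exposure of the hemin cells cannot be told apart. It was called, with a larger fall under hemin, for 5 of the 10 members, while 13.0% of the genes tested were called in that direction and 17.1% in the other. HSPD1 and HSPE1 had the largest interactions, at -1.58 ± 0.22 (adjusted p = 9.56e-05 by edgeR) and -1.55 ± 0.22 (adjusted p = 0.000135). Among CCT genes it was called for CCT4 (-1.13 ± 0.24, adjusted p = 0.00237), CCT6A (-0.67 ± 0.18, adjusted p = 0.0111) and TCP1 (-0.60 ± 0.22, adjusted p = 0.0485). The other 5 CCT genes had values of -0.24 (CCT5) to -0.44 (CCT8) that did not pass. The TCP1 call was lost in 13 of 21 alternative analyses and the CCT6A call in 1, without mock DMSO replicate 1, whereas those of HSPD1, HSPE1 and CCT4 were kept in all 21.

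The proportions of the CCT transcripts were compared next, because the complex holds its subunits in equal number. The summed level of the 8 genes was 749 ± 60.8 CPM per kilobase in mock DMSO, 511 ± 3.14 in mock nilotinib, 1462 ± 178 in hemin DMSO and 653 ± 12.5 in hemin nilotinib (mean ± SD, n = 3 each). The highest of the 8 levels was 2.39 to 2.68 times the lowest in the mock DMSO libraries, 2.34 to 3.57 times in mock nilotinib, 3.58 to 3.65 times in hemin DMSO and 2.21 to 2.94 times in hemin nilotinib.

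CCT2 stood elsewhere in the order of levels in the nilotinib groups. In mock DMSO its level per kilobase was 61.5 ± 8.12 CPM, the lowest of the 8 and within the spread of CCT5 at 63.8 ± 3.41. In hemin DMSO it was again the lowest, at 94.5 ± 11.4, next to CCT5 at 109 ± 15.2 within their spread. In mock nilotinib it was the third highest, at 80.0 ± 0.935, behind CCT4 at 94.8 ± 9.41 and CCT8 at 89.9 ± 5.74, which did not differ from each other beyond their spread. In hemin nilotinib it was level with TCP1 at 92.2 ± 15.6 against 92.2 ± 7.04, and both were within the spread of CCT8 at 98.7 ± 5.88 and CCT4 at 110.1 ± 23.1.

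As a share of the summed CCT level, CCT2 made up 7.73, 8.28 and 8.57% in the mock DMSO libraries and 15.5, 15.8 and 15.6% in the mock nilotinib libraries. With hemin it made up 6.39, 6.48 and 6.53% in the DMSO libraries and 17.0, 13.1 and 12.3% in the nilotinib libraries. All nilotinib libraries were above all DMSO libraries. These shares do not depend on how libraries are scaled, but they depend on the length used. With the length of the main transcript in GENCODE 29 in place of the listed gene length, the CCT2 share averaged 10.5% in mock DMSO, 19.5% in mock nilotinib, 8.48% in hemin DMSO and 17.5% in hemin nilotinib; on that scale CCT5 was the lowest gene in mock and hemin DMSO and CCT2 the highest in both nilotinib groups.

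CCT6A moved the other way, with shares of 10.2 ± 0.279% in mock DMSO and 7.25 ± 0.690% in mock nilotinib, and of 12.8 ± 0.603% in hemin DMSO and 8.74 ± 0.328% in hemin nilotinib. CCT4 had its highest share in hemin DMSO, at 23.3 ± 0.360%, against 17.9 ± 0.772% in mock DMSO. CCT8 had its highest share in mock DMSO, at 20.4 ± 0.315%, and 15.1 to 17.6% on average in the other groups. TCP1 made up 9.40 ± 0.271% in mock DMSO and 14.1 ± 1.18% in hemin nilotinib. CCT3, CCT5 and CCT7 averaged 10.9 to 13.1%, 6.17 to 8.54% and 10.3 to 12.7% over the 4 groups.

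Across the 12 libraries, the log2 CPM of CCT2 had a Pearson r of 0.285 with the mean of the other 7 CCT genes, whereas that of each other CCT gene had an r of 0.896 (TCP1) to 0.989 (CCT7). The libraries share their 4 groups, so these values describe the group pattern and carry no p. CCT2 shares no 50-base stretch of its main transcript with another gene and overlaps no exon of another gene in GENCODE 29. The same holds for CCT3 and CCT7. The cause of the CCT2 pattern was not tested.

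HSPD1 and HSPE1, whose proteins act together, differed in level. Per kilobase, HSPD1 measured 114 ± 7.58 CPM and HSPE1 8.70 ± 0.949 CPM in mock DMSO. Among all genes tested the HSPD1 level stood at a percentile of 96.6 to 99.6 in the 4 groups, and that of HSPE1 at a percentile of 67.4 in mock nilotinib and 96.2 in hemin DMSO.

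The log2 ratio of HSPD1 to HSPE1 per kilobase was 3.54, 3.92 and 3.67 in mock DMSO and 3.0, 3.41 and 3.39 in mock nilotinib. It was 2.75, 3.37 and 2.82 in hemin DMSO and 2.75, 2.58 and 2.22 in hemin nilotinib. The ratio was lowest with both compounds and highest with neither, on average, and the hemin DMSO libraries overlapped both those of mock nilotinib and those of hemin nilotinib. HSPE1 and HSPD1 are the members that share the most sequence with other genes, 27.2% and 24.8% of the 50-base stretches of their main transcripts. Rows of HSPE1 copies and of the readthrough gene HSPE1-MOB4 held 2.01 to 9.62% of the joint counts by library. Exons of HSPD1 on the opposite strand cover 14.2% of the HSPE1 exon length, and whether the counting used strand is not given in the sources used here, so the HSPE1 level itself is uncertain. For CCT6A, its copies held 2.34 to 14.7% of the joint counts, and 30.1% of the CCT5 exon length overlaps a gene on the opposite strand.

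**Figure D2:**
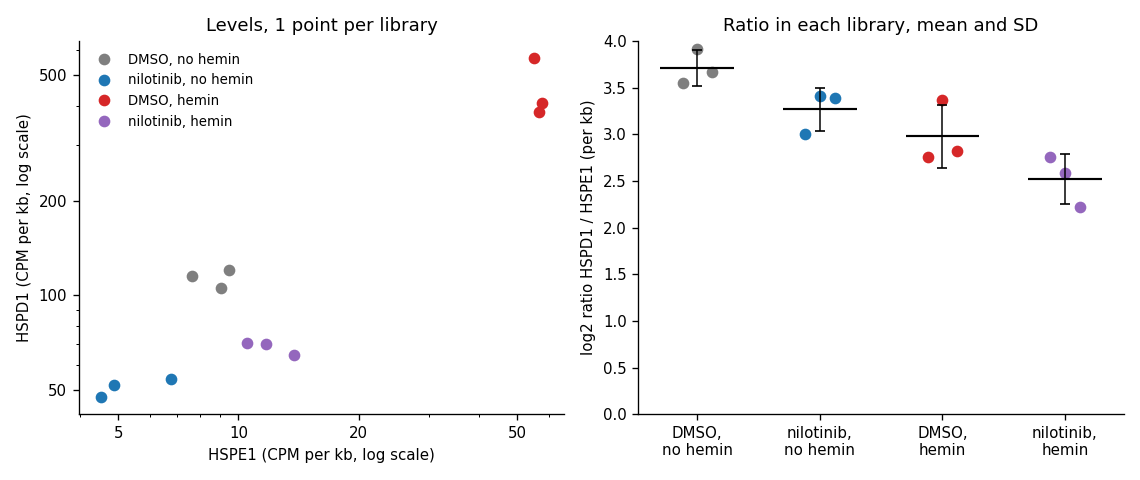
Left, HSPD1 against HSPE1 in CPM per kilobase (both axes log scaled), with a point per library; right, the log2 ratio of the same values with mean and SD (n = 3) per group. The mean ratio is 3.71 in mock DMSO and 2.52 in hemin nilotinib.

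The pathways around both chaperonins were read from lists of other genes, also chosen with earlier results of these data known. Among 16 HSF1-responsive chaperones and factors, hemin without nilotinib raised 15 and lowered 1 (25.7% and 27.8% of all genes tested). The median log2 fold change was 3.44. HSPA1A, an inducible HSP70, rose most, by 8.26 on the log2 scale, and HSF1 itself fell by 0.82. In cells given hemin, nilotinib lowered 15 of the 16 (31.8% of all genes tested), at a median of -2.36, from BAG3, an HSP70 co-chaperone, at -3.90, and raised HSF1 by 1.29. Without hemin, nilotinib lowered 4 and raised 1 (21.8% and 20.7% of all genes tested), at a median of -0.11. FKBP4, an HSP90 co-chaperone, was lowest at -1.38 and HSF1 highest at 0.90. On top of nilotinib, hemin raised 14 and lowered none (3.52% and 2.28% of all genes tested). The interaction was called negative for 15 and positive for none (13.0% and 17.1% of all genes tested). The first hemin nilotinib library was low and the third high for the strongest of these genes, with HSPA1A at 332, 2384 and 6788 CPM and DNAJB1, an HSP40, at 136, 481 and 1227 CPM. The log2 fold change of HSPA1A for hemin on top of nilotinib was 4.95. It was 3.72 when the third of these libraries was left out and 5.48 when the first was.

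Of 20 listed partners of CCT, 19 were tested, and hemin without nilotinib raised 7 and lowered 3 (25.7% and 27.8% of all genes tested), at a median log2 fold change of 0.04. Without mock DMSO replicate 1 it raised 4. CCT6B, a paralog of CCT6A at 1.0 to 2.51 CPM, was highest at 0.93, and those that fell were TXNDC9, a phosducin-like cofactor, at -0.83, TBCD, a tubulin cofactor, at -0.81 and BBS10, a chaperonin-like protein, at -0.40. With hemin, nilotinib lowered 6 and raised 4 (31.8% and 32.4% of all genes tested), the lowest being PDCL2 at -1.95, a phosducin-like gene with 1.06 CPM or less in every library. Those that rose were TBCD at 1.13, TXNDC9 at 0.92, BBS10 at 0.84 and TBCC, another tubulin cofactor, at 0.34. PFDN2, PFDN4 and PFDN6, subunits of prefoldin, were at 0.88, 0.62 and 0.65 with hemin alone and at -1.77, -0.56 and -0.93 with nilotinib under hemin. The tubulin cofactors TBCA and TBCB were at 0.46 and 0.62 with hemin alone and at -1.02 and -1.10 with nilotinib under hemin. All 5 were called in both comparisons, which share the hemin DMSO libraries. Without hemin, nilotinib lowered 6 and raised 3 (21.8% and 20.7% of all genes tested). Hemin on top of nilotinib gave 0 calls by edgeR, DESeq2 or limma-trend, with 4 genes at an unadjusted p under 0.05 in edgeR. The interaction was called positive for 2 and negative for 4 (17.1% and 13.0% of all genes tested). It was called negative for 1 without mock DMSO replicate 1 or 2, hemin DMSO replicate 2 or hemin nilotinib replicate 2 or 3. It was called negative for 2 without mock DMSO replicate 3 or mock nilotinib replicate 2 or 3. It was called positive for 1 without hemin DMSO replicate 3. Whether the partners differed from the CCT genes as a group was not tested.

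Among 15 CCT substrates, hemin without nilotinib raised 4 and lowered 4, which is near the 25.7% and 27.8% of all genes tested. The values ran from ACTG1, cytoplasmic gamma actin, at -0.62 to TUBB2A, a beta tubulin, at 0.78. With hemin, nilotinib also lowered 4 and raised 4 (31.8% and 32.4% of all genes tested), from ACTG1 at -1.87 to TUBB6, another beta tubulin, at 1.47. Without hemin it lowered 4 and raised 3 (21.8% and 20.7% of all genes tested). Hemin on top of nilotinib raised 1 (CDC20, a mitotic activator, at 0.52), against 3.52% of all genes tested. The interaction was called positive for 2 and negative for 3 (17.1% and 13.0% of all genes tested). These small counts moved with single libraries: hemin without nilotinib raised 2 without mock DMSO replicate 1 and lowered 2 without hemin DMSO replicate 3, the CDC20 call was lost without mock nilotinib replicate 2 or 3 or hemin nilotinib replicate 2, and the negative interactions were 1 without mock DMSO replicate 3, hemin DMSO replicate 2 or mock nilotinib replicate 2. The positive interactions were 4 without hemin DMSO replicate 2 or hemin nilotinib replicate 3.

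In mitochondria, 15 other chaperones and proteases were counted. Nilotinib lowered 10 without hemin and 10 with hemin, of which 9 were shared, while it lowered 21.8% and 31.8% of all genes tested. The lowest was HSPA9, the mitochondrial HSP70, at log2 fold changes of -2.17 and -2.10. The highest was HTRA2, a protease of the space between the membranes, at 0.63 and 1.06, and SPG7, an inner membrane protease, was also raised in both (0.53 and 0.57). AFG3L2, its partner, was lowered without hemin (-0.54) and raised with it (0.44), and YME1L1, another inner membrane protease, was lowered only in the test with hemin (-0.87, against -0.18 without). Hemin without nilotinib raised 4 and lowered 4, at a median of 0.03, which is near the 25.7% and 27.8% of all genes tested. HSPD1 and HSPE1 rose by 2.0 and 2.70 in this comparison. On top of nilotinib, hemin raised 2, HSPA9 (0.94) and CLPB, a disaggregase (0.58), against 3.52% of all genes tested. Neither was called without mock nilotinib replicate 2 or 3, and 1 was called without mock nilotinib replicate 1 or hemin nilotinib replicate 2. DNLZ had the highest value, 1.74 ± 0.91, at 0.634 CPM or less in every library, and did not pass. The interaction was called positive for 3 and negative for 1 (17.1% and 13.0% of all genes tested). It was called positive for 1 without hemin DMSO replicate 3 or mock nilotinib replicate 2.

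Of 10 mitochondrial import genes, nilotinib lowered 8 without hemin (21.8% of all genes tested), with TIMM44 lowest at -1.36. With hemin it lowered 6 and raised 1 (31.8% and 32.4% of all genes tested). The values ran from TIMM17A, a channel subunit, at -1.71 to PAM16, a motor subunit, at 1.43. Hemin without nilotinib lowered 3 and raised 1 (27.8% and 25.7% of all genes tested), from TOMM40, the outer membrane pore, at -1.47 to TIMM17A at 1.14. On top of nilotinib it gave 0 calls by edgeR, DESeq2 or limma-trend, with 1 gene, TIMM17A, at an unadjusted p under 0.05. The interaction was called positive for 2 and negative for 1 (17.1% and 13.0% of all genes tested).

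Among 10 reference genes, nilotinib lowered 6 and raised 2 in cells given hemin (31.8% and 32.4% of all genes tested). The median was -0.64, and values ran from PPIB, a cyclophilin of the endoplasmic reticulum, at -2.03 to SDHA at 0.51. Without hemin nilotinib lowered 3 and raised 2 (21.8% and 20.7% of all genes tested), from PGK1 at -1.37 to GUSB at 0.41. It raised none of the reference genes without any 1 of the mock DMSO libraries or without mock nilotinib replicate 2 or 3. Hemin raised 4 and lowered 1 without nilotinib (25.7% and 27.8% of all genes tested), from SDHA at -0.35 to HPRT1 at 0.93. With nilotinib it raised 1, PGK1 at 0.61, against 3.52% of all genes tested. Without nilotinib it raised 2 without mock DMSO replicate 1 or hemin DMSO replicate 2, and the PGK1 call was lost without any 1 of the mock nilotinib libraries or without hemin nilotinib replicate 2. The interaction was called negative for 1, TBP at -0.65, against 13.0% of all genes tested. PPIB had the lowest value, -0.72, which did not pass.

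**Figure D3:**
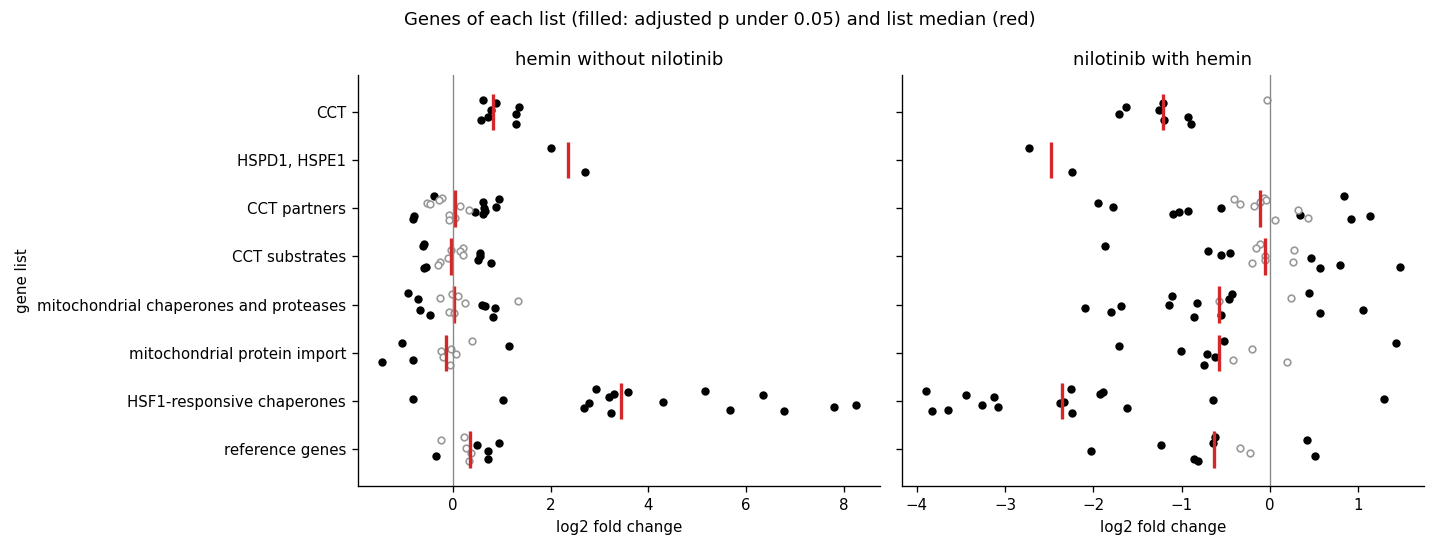
Log2 fold change (x axis) of the genes of each list (y axis) for hemin without nilotinib and nilotinib with hemin; filled points passed an adjusted p under 0.05, and the red bar is the list's median. For hemin without nilotinib the medians are 0.83 for CCT, 2.35 for HSPD1 and HSPE1 and 3.44 for the HSF1-responsive list.

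Over the 12 libraries, the genes whose log2 CPM most resembled the mean of the 8 CCT genes, among 12495 genes, were HSPA4, an HSP70 family member (r = 0.991), DNAJC7, a co-chaperone (0.990), DDA1 (0.989), RAB7A, a GTPase of late endosomes (0.988), and NVL (0.988). For the mean of HSPD1 and HSPE1 they were NUDC, a co-chaperone (0.997), LIN52 (0.994), CSRNP1 (0.993), CKS2, a cyclin-dependent kinase subunit (0.993), and ZNF280A (0.992). These values rest largely on differences between the 4 groups.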

How the data were processed

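RNA-seq of K562 cells (150-base paired-end reads) was analysed from the raw count of reads per gene that the authors deposited for 12 libraries; a sequencing service made these counts, and the aligner, the counter and its strand setting are not given in the sources used here. The submitters' processing notes name GRCh38.p12, DESeq and DESeq2. The authors also deposited FPKM, which are counts per kilobase divided by median-of-ratios size factors, and a table of mean FPKM per condition that was not used here. Columns of per-sample values that matched no sample numbered 0. Gene identifiers are those of GENCODE 29.

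Counts were fitted in R 4.3.3 with edgeR 4.0.16: filterByExpr (minimum count 10, minimum total count 15), TMM factors, and a quasi-likelihood fit with 1 mean per group over all 12 libraries. The 5 contrasts were tested two-sided, with Benjamini-Hochberg adjustment over the 20821 genes tested. The SE is the absolute log2 fold change divided by the square root of F. Procedures were tested on simulated data. An exact permutation test of 3 against 3 libraries cannot go below p = 0.1, so shares and ratios are given without a test. Alternatives were other scaling factors, other filters, DESeq2 1.42.0, limma 3.58.1 (limma-trend) on log2 FPKM with a pseudocount of 1 or 0.1, a fit of only the groups compared, a fit blocked on replicate number, and fits that leave out 1 library; the block in only the groups compared and the length of the main transcript were added after seeing the data. Same-numbered libraries, numbered by the labels, deviated together (correlation above 0.1 in all 3 pairs) only in the nilotinib groups, mock against hemin, at 0.199 to 0.263. P-values measure the spread between these replicates. The study calls them biological, and whether they are separate cultures from separate days is not given.

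The members and lists were chosen with earlier results of these data known. The named genes are the 10 members, the highest and lowest of each list in a contrast, those called against most of their list, and the 5 most similar by Pearson r among genes with a mean of at least 100 counts; PFDN2, PFDN4, PFDN6, TBCA, TBCB, YME1L1, CLPB and DNAJB1 were named after their values were seen. Figures were drawn with Python 3.11.15, numpy 2.4.6, pandas 2.3.3 and matplotlib 3.10.9.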

Additional observations from a re-analysis of the deposited data

Results flagged for a closer look

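The effect of nilotinib differed between cells with and without hemin, by the interaction term of the edgeR fit, for 5 of the 10 chaperonin genes. On the log2 scale the difference was -1.58 for HSPD1, -1.55 for HSPE1, -1.13 for CCT4, -0.67 for CCT6A and -0.60 for TCP1, each a larger fall with hemin. The hemin cells also had a longer exposure to nilotinib, by the study's methods, so hemin and exposure time cannot be told apart here. The value for TCP1 has an adjusted p of 0.0485 by edgeR, close to the threshold, with adjusted p over the alternatives of up to 0.161.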

How the results depend on the processing

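Of 89 alternative counts of members called, 82 stayed within 1.5 times the main count. For hemin with nilotinib the count of 5 became 3 with only the groups compared and ranged from 1 to 5 when a library was left out. For the interaction the count of 5 became 9 with upper-quartile factors and ranged from 3 to 6 when a library was left out, 3 being without mock DMSO replicate 1. With the replicate block in all 12 libraries the counts were 9, 8, 10, 5 and 5, as without it; with only the paired groups of hemin with nilotinib, the block gave 6. Leaving out composition factors moved the median log2 fold change of all genes tested to 0.20 for nilotinib with hemin, -0.29 for hemin without nilotinib and 0.27 for the interaction, and upper-quartile factors to 0.11 for nilotinib without hemin. Of 890 alternative log2 fold changes of single members, 829 kept their direction and side of the threshold. The 5 that turned were those of CCT2 for nilotinib with hemin, at 0.14 without composition factors, 0.0048 with all genes of at least 1 count, 0.065 without hemin DMSO replicate 2, 0.003 without hemin nilotinib replicate 2 and 0.073 without hemin nilotinib replicate 3 (range -0.17 to 0.073 over the libraries left out). The log2 ratio of HSPD1 to HSPE1, computed with main transcript lengths, became 3.44 in mock DMSO and 3.0 in mock nilotinib. With these lengths it became 2.71 in hemin DMSO and 2.25 in hemin nilotinib, since a change of length shifts all groups alike. Of 160 alternative CCT shares, 25 moved by more than 1 SD, all with that length. The alternatives other than length could not move so far. Shares from FPKM equal the main shares, and leaving out 1 of 3 libraries shifts a mean by less than 1 SD. The 160 therefore do not show that the shares are stable. The TCP1 interaction was lost without composition factors, with all genes of at least 1 count, and without any 1 of 11 libraries, all but hemin DMSO replicate 1. No gene of the 10 was limited by depth, and the cause of these changes was not tested.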
